A study of Mus musculus with 2 samples.

Results

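T cell receptor beta segments are the short gene pieces from which each developing T cell builds the variable part of its receptor beta chain. The members were all genes whose symbol starts with Trbv, Trbd or Trbj, which gave 51 of the 32285 genes counted, with 35 V, 2 D and 14 J segments. Single-cell RNA of mouse spleen cells was measured by a droplet method that reads the 5′ end of each transcript and counts molecules by a unique molecular identifier (UMI). The ALLO library came from wild-type C57BL/6 recipients of tail skin of C57BL/6-Tg(HLAA2.1)1Enge/J mice, which carry a human HLA-A2.1 transgene, grafted at week 0 and again at week 5. The SYN library came from wild-type C57BL/6 recipients of wild-type C57BL/6 skin, with the same grafting times. Spleens of both groups were collected 4 weeks after the week 5 graft, and the cells were cryopreserved, then thawed and cleared of dead cells. Each group has 1 library and the labels do not say how many animals it holds, so every value below compares these libraries and no test of the treatment was possible. Cells of a library are not replicates, and all 95% intervals cover counting error only.

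During T cell development in the thymus, recombination joins a V, a D and a J segment, with bases added or lost at the joints, and the joined exon is spliced to the constant gene Trbc1 or Trbc2. A transcript therefore normally carries a single V segment, which encodes the first parts of the chain that touch the antigen-presenting molecule, while the joint forms the part that mostly touches the peptide. Cells that descend from the same T cell keep the same beta and alpha segments, so a shared segment pair is a necessary but not a sufficient sign of common descent.

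The locus lies on chromosome 6 of the mouse assembly GRCm38 (mm10), from chr6:40891229-40891885 for Trbv1 at the 5′ end to chr6:41557691-41558452 for Trbv31 at the 3′ end. Trbv31 is on the minus strand, downstream of both constant genes, and the other 50 members are on the plus strand. The coding ends of the V segments on which the results below turn are shown from GENCODE M21, 60 bases each, with the codon of the conserved cysteine before the joint in capitals.
Trbv12-1: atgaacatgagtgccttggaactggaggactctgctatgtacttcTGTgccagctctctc
Trbv12-2: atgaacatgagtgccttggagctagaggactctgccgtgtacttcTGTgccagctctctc
Trbv29: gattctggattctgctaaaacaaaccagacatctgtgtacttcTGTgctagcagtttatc
Trbv14: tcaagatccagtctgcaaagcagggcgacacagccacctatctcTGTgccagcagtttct
Trbv17: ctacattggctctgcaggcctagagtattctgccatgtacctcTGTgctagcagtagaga
Trbv20: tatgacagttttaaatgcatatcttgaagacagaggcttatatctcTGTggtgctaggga
Trbv31: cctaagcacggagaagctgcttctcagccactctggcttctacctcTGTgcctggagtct
Trbv3: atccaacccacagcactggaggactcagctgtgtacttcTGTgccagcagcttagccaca
Trbv13-2: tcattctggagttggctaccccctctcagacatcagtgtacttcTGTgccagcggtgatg

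The last 240 coding bases of Trbv12-1 (chr6:41113828-41114067) and Trbv12-2 (chr6:41119125-41119364), all in the V exon, are shown as well, because this pair gave the widest gap between CD8 and CD4 T cells. Capitals mark the bases that differ between them.
Trbv12-1: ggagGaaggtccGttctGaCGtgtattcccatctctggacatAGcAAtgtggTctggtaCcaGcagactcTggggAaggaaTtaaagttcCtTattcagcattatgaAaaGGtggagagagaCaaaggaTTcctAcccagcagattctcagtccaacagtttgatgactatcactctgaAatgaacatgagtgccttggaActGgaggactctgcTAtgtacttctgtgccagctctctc
Trbv12-2: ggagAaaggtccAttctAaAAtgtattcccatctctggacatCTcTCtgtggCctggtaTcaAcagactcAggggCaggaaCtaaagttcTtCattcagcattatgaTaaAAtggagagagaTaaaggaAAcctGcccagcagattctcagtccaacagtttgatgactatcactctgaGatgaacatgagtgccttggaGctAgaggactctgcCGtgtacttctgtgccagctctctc
Over their whole coding sequences, 44 of 372 bases differ. Among all 231 pairs of the 22 coding V segments, the median identity was 55.5% and 4 pairs were above 80%. Those were Trbv13-2 with Trbv13-3 (90.6%), Trbv12-1 with Trbv12-2 (88.2%), Trbv13-1 with Trbv13-2 (87.9%) and Trbv13-1 with Trbv13-3 (85.3%). The longest stretch without a difference was 44 bases for the Trbv12 pair and 50 bases for Trbv13-2 with Trbv13-3. A read that falls wholly within such a stretch cannot be told apart. Whether reads did so was not tested, so the split within these 2 families may be uncertain.

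Only V segments were counted in these libraries. The 35 Trbv members held 15426 UMIs in ALLO and 21180 in SYN, over barcodes with at least 1000 UMIs. All 22 coding V segments had a UMI. Trbv21, with 2 UMIs in ALLO and 5 in SYN, was the one below 20. Of the 13 V pseudogenes, Trbv24 (54 and 83 UMIs), Trbv22 (5 and 8), Trbv10 (2 and 0) and Trbv18 (0 and 1) had any UMI, and Trbv6, Trbv7, Trbv8, Trbv9, Trbv11, Trbv12-3, Trbv25, Trbv27 and Trbv28 had none. The D segments Trbd1 and Trbd2, which are 12 and 14 bases long, and the J segments Trbj1-1 to Trbj1-7 and Trbj2-1 to Trbj2-7, which are 46 to 54 bases long, had 0 UMIs in both libraries. A joined D or J segment was therefore not seen in these counts, and V segments could not be paired with J segments.
Trbd1: gggacagggggc
Trbd2: gggactgggggggc
These sequences are shown to make plain how short a stretch a D segment adds.

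The 2 libraries held 39476214 UMIs over 11185 barcodes in ALLO and 45435231 UMIs over 17777 barcodes in SYN, and 9926 and 11267 barcodes with at least 1000 UMIs were kept. They share 264 barcode sequences, 161 of them among kept barcodes in both. A T cell was a barcode with a UMI of Cd3d, Cd3e or Cd3g, the signalling chains of the receptor, and none of the B cell gene Cd79a, which gave 1772 ALLO and 2417 SYN cells. CD4 T cells had a Cd4 UMI and none of Cd8a or Cd8b1 (574 and 872 cells), and CD8 T cells had a Cd8b1 UMI and none of Cd4 (559 and 555). T cells with a UMI of Foxp3, the master regulator of regulatory T cells, numbered 104 and 115, and 639 and 990 T cells fell in neither the CD4 nor the CD8 class.

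V segment transcripts were found in nearly every CD4 and CD8 T cell. In CD4 T cells a Trbv UMI was present in 92.5% of ALLO cells (interval 90.0 to 94.5%) and 92.3% of SYN cells (90.3 to 94.0%). In CD8 T cells the shares were 93.9% (91.6 to 95.8%) and 91.5% (88.9 to 93.7%), and in Foxp3 T cells 91.3% and 93.9%. B cells, which make no T cell receptor, had a Trbv UMI in 1.41% of ALLO and 3.07% of SYN cells. Their median depths were 3191 and 3026 UMIs, against 4189.5 and 4065.5 in CD4 T cells. NK cells, also without a T cell receptor, had one in 1.47% of 136 ALLO and 4.74% of 211 SYN cells. Both classes were chosen without a UMI of Cd3d, Cd3e or Cd3g. That rule removes barcodes with such T cell RNA, so these low shares are partly set by it. T cells held 78.5% of all Trbv UMIs in ALLO and 74.9% in SYN, and the rest lay in other barcodes. Gamma delta T cells, which use another receptor, had one in 6 of 28 ALLO and 11 of 22 SYN cells. With each cell thinned to 1000 UMIs the shares were 70.4% and 69.4% in CD4 T cells, 64.6% and 63.8% in CD8 T cells and 0.422% and 1.80% in B cells. The shares were lower at this equal depth, and the gap between T and B cells, as set by the CD3 rule, remained.

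A cell was assigned to its leading V segment where this had 2 UMIs or more and led the next segment by a factor of 2 or more. This assigned 458 ALLO and 677 SYN CD4 T cells, 455 and 438 CD8 T cells, and 87 and 93 Foxp3 T cells. The number of UMIs per assigned cell differed between segments, from a median of 2 for Trbv5 in both libraries to 12 in ALLO and 14.5 in SYN for Trbv17, so a segment with few UMIs per cell is assigned less often. Shares are therefore compared for 1 segment between cell classes, not between segments.

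By number of assigned cells, Trbv13-2, Trbv3 and Trbv31 were the 3 leading segments of CD4 T cells in both libraries, with 28.6% of them in ALLO (24.5 to 33.0%) and 32.9% in SYN (29.4 to 36.6%). Trbv13-2 alone took 12% (9.18 to 15.3%) and 12.7% (10.3 to 15.4%). This order is a description and depends on the measure. By share of Trbv UMIs, Trbv13-2 (13.3% in ALLO and 13.4% in SYN) and Trbv3 (9.18% and 11.7%) again led in CD4 T cells, but the third place went to Trbv1 in ALLO (8.94%) and Trbv13-1 in SYN (9.82%), with Trbv31 at 6.49% and 8.74%. In CD8 T cells Trbv3 and Trbv12-2 had 42 assigned cells each in ALLO, and Trbv13-2 had the most in SYN with 46, while by Trbv UMIs Trbv12-2 led in ALLO (12.1%) and Trbv1 in SYN (9.25%). The effective number of segments, which is the number of equally used segments that would give the same chance of drawing a matching pair of cells, was 15.5 and 13.5 in CD4 T cells and 16.6 and 15.5 in CD8 T cells.

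**Figure D1:**
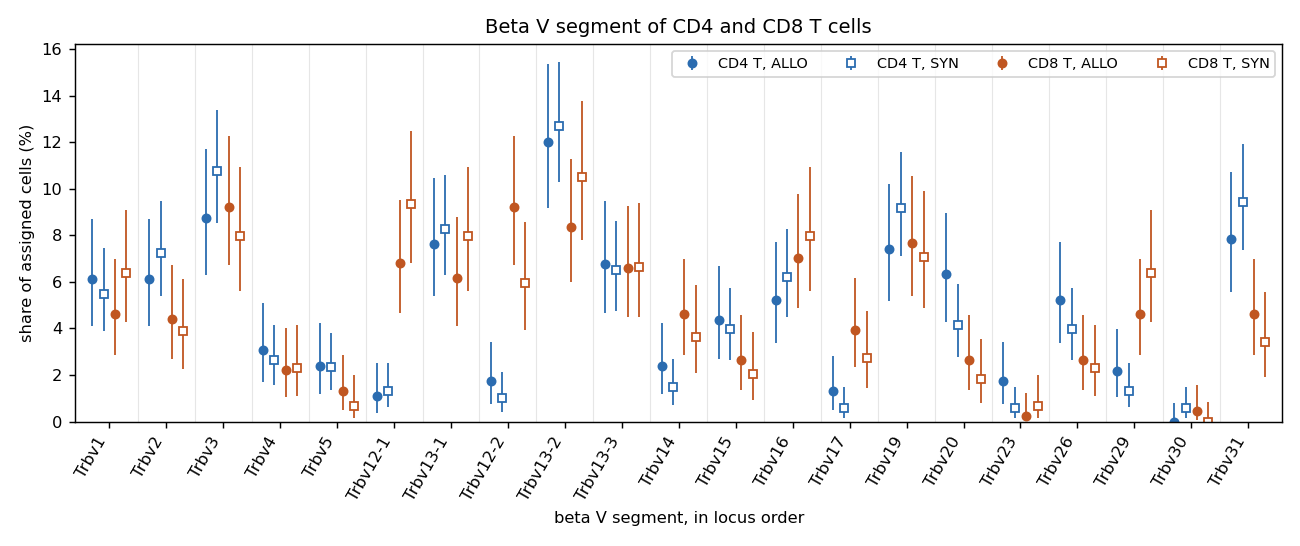
Share of assigned cells (%, vertical axis) for the coding V segments with an assigned cell, in locus order. Blue points are CD4 T cells and orange points CD8 T cells, filled for ALLO and open for SYN, with 95% Clopper-Pearson intervals. The wide gap is at Trbv12-1 and Trbv12-2, which stand between 5.94 and 9.36% in CD8 T cells and at or below 1.75% in CD4 T cells in both libraries.

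The clearest difference between classes was in the V segments of CD8 and CD4 T cells, which see antigen on class I and class II molecules. Trbv12-1 made up 6.81% of assigned CD8 T cells in ALLO (31 of 455) and 9.36% in SYN (41 of 438), against 1.09% (5 of 458) and 1.33% (9 of 677) of CD4 T cells. The CD8 share was 6.24 times the CD4 share in ALLO (interval 2.41 to 20.6) and 7.04 times in SYN (3.37 to 16.5). Its close relative Trbv12-2 made up 9.23% and 5.94% of CD8 T cells and 1.75% and 1.03% of CD4 T cells, with ratios of 5.28 (2.45 to 13) and 5.74 (2.43 to 15.7). Taken as 1 family, Trbv12-1 and Trbv12-2 held 16% of CD8 against 2.84% of CD4 T cells in ALLO, a ratio of 5.65 (3.11 to 11.1), and 15.3% against 2.36% in SYN, a ratio of 6.47 (3.71 to 12). The Trbv13 family showed no such gap, with ratios of 0.799 (0.604 to 1.05) and 0.914 (0.715 to 1.16). Copies were joined after assignment, so a cell with UMIs split between copies could stay unassigned and uncounted in these family shares.

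Trbv29 was 4.62% of CD8 and 2.18% of CD4 T cells in ALLO and 6.39% and 1.33% in SYN, with ratios of 2.11 (0.953 to 5.03) and 4.81 (2.21 to 11.6). Trbv14 was 4.62% and 2.40% in ALLO and 3.65% and 1.48% in SYN, with ratios of 1.92 (0.886 to 4.41) and 2.47 (1.06 to 6.10). Both were on the CD8 side in both libraries, but the ALLO intervals include 1. Trbv17 was 3.96% of CD8 and 1.31% of CD4 T cells in ALLO, a ratio of 3.02 (1.15 to 9.29). In SYN it had 12 CD8 and 4 CD4 T cells, which is under the minimum of 20 cells set for a segment.

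Trbv31, Trbv20, Trbv15 and Trbv26 stood on the CD4 side. Trbv31, the inverted segment at the 3′ end, was 4.62% of CD8 and 7.86% of CD4 T cells in ALLO, a ratio of 0.587 (0.326 to 1.03), and 3.42% and 9.45% in SYN, a ratio of 0.362 (0.192 to 0.643). Trbv20 had ratios of 0.417 (0.194 to 0.842) in ALLO and 0.442 (0.174 to 0.995) in SYN, so its CD4 side held in both libraries with intervals below 1. Trbv15 had 0.604 (0.269 to 1.30) and 0.515 (0.213 to 1.13), and Trbv26 had 0.503 (0.229 to 1.05) and 0.572 (0.247 to 1.22), so for these the direction was shared but both intervals include 1. Trbv2 was on the CD4 side past 1.5-fold in SYN (0.536, 0.290 to 0.948), while its ALLO ratio was 0.719 (0.384 to 1.32).

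In all, 8 of 17 segments with at least 20 assigned cells in each library were at least 1.5-fold apart in the same direction in both, 4 on each side. The intervals of Trbv12-1, Trbv12-2 and Trbv20 excluded 1 in both. The background for that size of difference, over all genes with at least 20 cells holding 2 or more UMIs in both libraries, was 12% of 3588 genes. Counted by that same rule, 5 of 18 Trbv genes were higher in CD8 T cells in both libraries, against 7.66% of all genes, and 2 of 18 were lower, against 4.32%. Summed UMIs of a class, scaled to counts per 1000000 UMIs (CPM), gave the same direction for these 8 segments and Trbv17 in both libraries. Trbv12-1 was at 62.5 CPM in CD8 and 21.5 in CD4 T cells in ALLO and at 91.4 and 22.3 in SYN, and Trbv14 in ALLO was within 1.5-fold on this scale (43 and 33.5 CPM). By CPM 15 of 22 Trbv genes were at least 1.5-fold apart in ALLO, against 24.6% of all genes, and 13 of 21 in SYN, against 18.8%. Of these, 10 in ALLO and 8 in SYN were lower in CD8 T cells. All Trbv UMIs together were also lower in CD8 T cells, at 0.758 times the CD4 CPM in ALLO (0.726 to 0.791) and 0.834 times in SYN (0.801 to 0.868). CPM counts therefore mix this general shift with segment use, and its part was not tested. By cells with 2 or more UMIs the single-library backgrounds were 28.8% in ALLO and 29.2% in SYN, where 9 of 18 and 9 of 17 segments were apart by assigned cells. UMIs of 1 cell are not independent, so a few cells with many UMIs can move a CPM value.

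**Figure D2:**
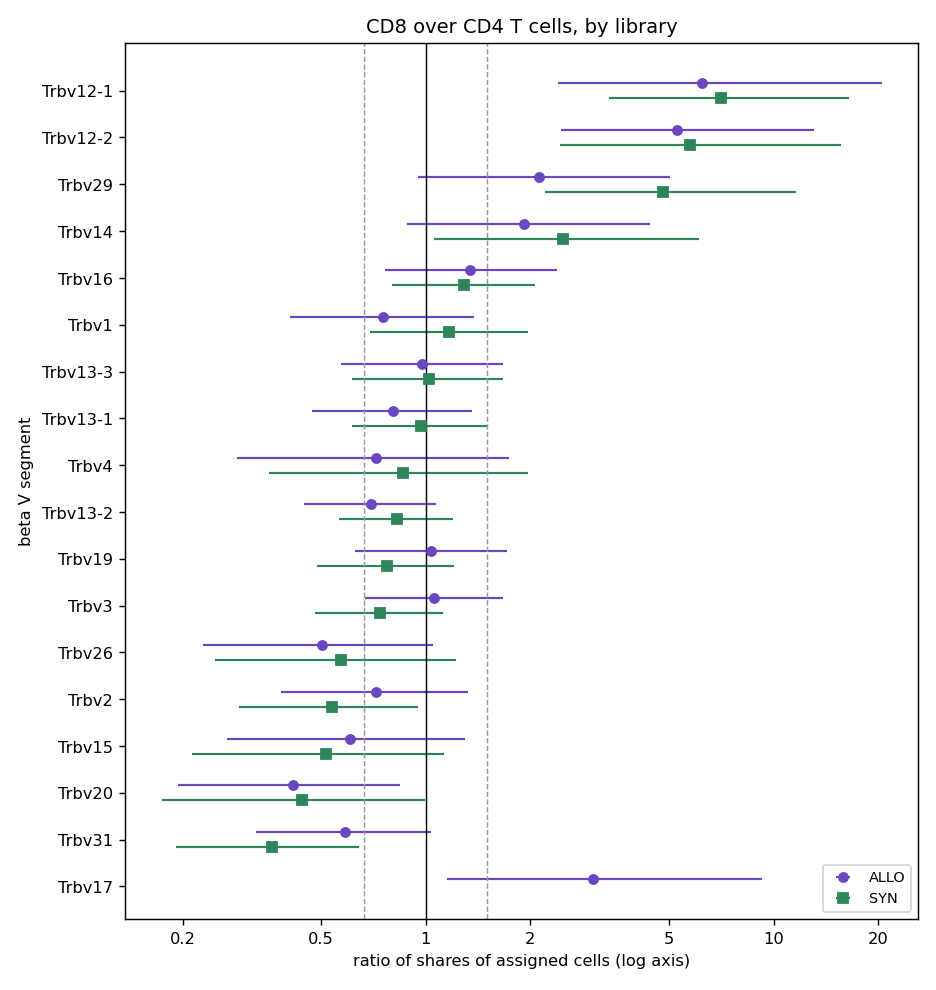
Ratio of the CD8 to the CD4 share of assigned cells for each V segment with at least 20 assigned cells, on a log axis, with exact 95% intervals; purple circles are ALLO and green squares SYN. Dashed lines mark 1.5-fold either way, and Trbv17 had enough cells in ALLO only. Trbv12-1 and Trbv12-2 lie above 5 in both libraries, and Trbv31 and Trbv20 lie below 0.6.

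Between the grafted groups, few V segments of the same class were apart in their share of cells. In CD4 T cells 2 of 15 segments were at least 1.5-fold apart by assigned cells. Trbv20 was 6.33% in ALLO and 4.14% in SYN (ratio 1.53, 0.879 to 2.67) and Trbv14 was 2.40% and 1.48% (1.63, 0.627 to 4.27). In CD8 T cells 1 of 18 was, and this was Trbv12-2 at 9.23% and 5.94% (1.56, 0.931 to 2.64). The background was counted by another rule, cells with 2 or more UMIs. By that rule 3 of 18 Trbv genes were apart in CD4 T cells, all higher in ALLO, against 26% of all genes. In CD8 T cells 1 of 18 was, lower in ALLO, against 15.8% of all genes. For the shares of assigned cells, no interval in either class excluded 1. The ratios ran from 0.810 for Trbv3 to 1.63 for Trbv14 in CD4 T cells, and from 0.722 for Trbv1 and Trbv29 to 1.56 for Trbv12-2 in CD8 T cells. These intervals also allow differences of 1.5-fold for most segments, so the values do not show that the libraries are alike.

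Summed UMIs gave more differences. In CD4 T cells 4 of 21 Trbv genes were at least 1.5-fold apart by CPM, against 12.6% of all genes, and all 4 were higher in ALLO. These were Trbv23 (28.5 and 6.07 CPM), Trbv20 (111 and 50.5), Trbv14 (33.5 and 16) and Trbv12-2 (67.3 and 35). In CD8 T cells 6 of 21 were apart, against 10.9% of all genes, with Trbv23, Trbv12-2 and Trbv20 higher and Trbv1, Trbv29 and the pseudogene Trbv24 lower in ALLO. In Foxp3 T cells 9 of 17 were apart, against 24.7%, from 104 and 115 cells. The share of cells and the UMI sum differ in what 1 cell adds: Trbv23 was assigned to 8 ALLO and 4 SYN CD4 T cells.

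Beside these values, the haemoglobin genes Hba-a1, Hba-a2, Hbb-bs and Hbb-bt held 574 UMIs (206 CPM) in SYN CD8 T cells and 2 UMIs in ALLO CD8 T cells, and 124 UMIs in ALLO CD4 T cells and 9 in SYN. The regulatory T markers Foxp3, Ikzf2, Il2ra and Ctla4 together were at 286 CPM in ALLO and 162 in SYN CD4 T cells, with all 4 detected in both. Their part in the segment shares was not tested.

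**Figure D3:**
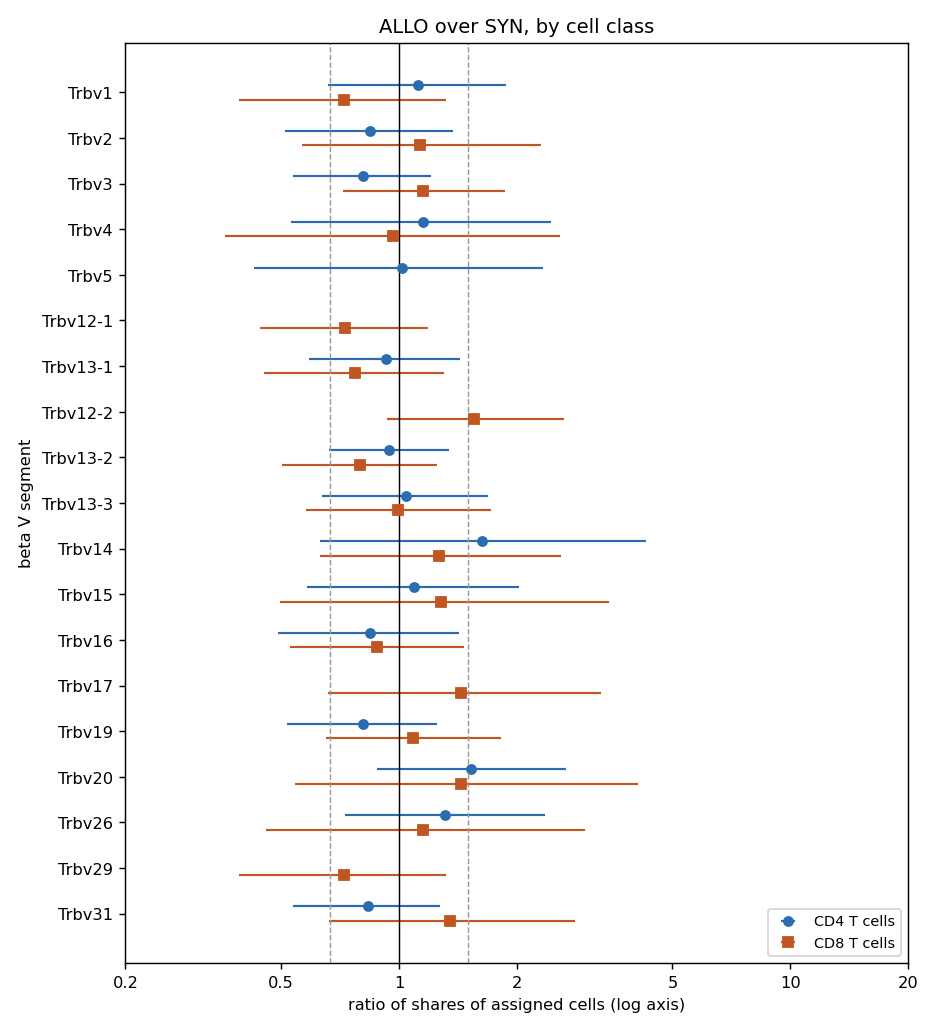
Ratio of the ALLO to the SYN share of assigned cells for each V segment with at least 20 assigned cells, on a log axis, with exact 95% intervals; blue circles are CD4 T cells and orange squares CD8 T cells. Dashed lines mark 1.5-fold either way. Every interval spans 1.

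Foxp3 T cells were taken from all T cells, while the cells they are set against are all of the CD4 class. Of the 104 ALLO and 115 SYN Foxp3 T cells, 45 and 49 were in the CD4 class, 2 and 7 in the CD8 class, and 57 and 59 in neither. Their Cd4 level was 194 CPM in ALLO and 184 in SYN, against 472 and 443 in Foxp3-negative CD4 T cells. The CD4 class requires a Cd4 UMI and the Foxp3 rule does not, so this gap does not compare Cd4 expression. Foxp3 T cells also held 9 and 29 UMIs of Cd8b1 (18.2 and 59.9 CPM), which the CD4 class excludes. The part of this mixture in the segment shares was not tested beyond the values for the CD4 class given below.

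Foxp3 T cells used 18 segments in each library, and their effective number was 15.5 in ALLO and 15.3 in SYN. Against CD4 T cells without Foxp3, 4 of 12 segments were at least 1.5-fold apart by assigned cells in ALLO and 2 of 12 in SYN. By assigned cells, none was apart in the same direction in both libraries. By the rule of the background, cells with 2 or more UMIs, 4 of 12 Trbv genes were apart in ALLO, against 35.6% of genes. In SYN 3 of 13 were, against 38.6%. In both libraries 1 of 12 was lower and 0 were higher, against 15.3% of genes in either direction. By assigned cells, the segments apart in ALLO were Trbv3 (14.9% against 8.89%, ratio 1.68), Trbv20 (2.30% against 6.73%, 0.342), Trbv31 (4.60% against 8.17%, 0.563) and Trbv13-1 (4.60% against 7.93%, 0.580), and all 4 intervals include 1. In SYN they were Trbv26 (9.68% against 3.47%, ratio 2.79, 1.13 to 6.30) and Trbv13-3 (2.15% against 6.78%, 0.317). Trbv12-1 and Trbv12-2 together were 8.05% of Foxp3 and 2.40% of Foxp3-negative cells in ALLO (3.35, 1.08 to 9.74) and 4.30% and 2.21% in SYN (1.95, 0.467 to 6.20), from 7 and 4 Foxp3 cells. With Foxp3 cells of the CD4 class alone the shares were 3 of 42 cells in ALLO (7.14%, ratio 2.97, 0.525 to 11.5) and 2 of 43 in SYN (4.65%, 2.11, 0.232 to 9.17), and both intervals include 1. Between libraries, only Trbv3 and Trbv13-2 had 20 Foxp3 T cells, with ratios of 1.39 and 1.31, both within 1.5-fold against a background of 15.1%. By CPM 13 of 20 Trbv genes in ALLO and 8 of 21 in SYN were apart between Foxp3 and Foxp3-negative cells, against 30.6% and 31.5% of genes. On this scale 2 of 20 were higher in both libraries, against 7.36% of genes, and 3 of 20 lower, against 3.86%. The higher ones were Trbv29 (ratios of 2.24 and 2.91) and Trbv26 (1.62 and 3.92), and the lower ones Trbv4, Trbv13-3 and Trbv17.

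Effector CD8 T cells were those with at least 2 UMIs in sum of Gzma, Gzmb, Klrg1, S1pr5 and Cx3cr1, which encode granzymes and surface receptors of cytotoxic effector cells. There were 45 of 559 CD8 T cells in ALLO (8.05%, 5.93 to 10.6%) and 11 of 555 in SYN (1.98%, 0.993 to 3.52%), a ratio of 4.06 (2.07 to 8.71). Of these, 36 and 7 were assigned a segment. In ALLO the effector cells held 10 segments with an effective number of 7.41, against 21 segments and 16.4 in the 419 other assigned CD8 T cells. The 3 leading segments of the effector cells, Trbv17, Trbv31 and Trbv3, took 61.1% of them (43.5 to 76.9%), and the 3 leading segments of the other cells, which were Trbv12-2, Trbv13-2 and Trbv3, took 26.5% (22.3 to 31%). Leading segments were picked from the same cells, which raises their share, and more so in 36 cells than in 419. The intervals do not cover this choice. The effector sets are small: the 7 assigned effector cells of SYN held 5 segments, with none of Trbv17, Trbv31 or Trbv3 among them. Their 3 leading segments took 71.4% of these cells. An unassigned SYN effector cell had 11 UMIs of Trbv17 and 7 of Trbv3, so these 2 segments were not absent from the SYN effector set.

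Trbv17 was carried by 9 of 36 effector cells (25.0%, 12.1 to 42.2%) and by 9 of 419 other CD8 T cells (2.15%), a ratio of 11.6 (4.09 to 33.1). Its 18 cells lie under the minimum of 20, so it is named here after its values were seen. Trbv31 was carried by 7 effector cells (19.4%) and 14 others (3.34%), a ratio of 5.82 (1.99 to 15.4), which is opposite in direction to its low share in CD8 against CD4 T cells. The 7 effector cells had a median of 2 Trbv31 UMIs (2 to 12), which is the minimum for assignment, against a median of 7 in the 14 others. Trbv3 was carried by 6 effector cells (16.7%) and 36 others (8.59%), a ratio of 1.94 with an interval of 0.668 to 4.65 that includes 1. Among segments with at least 20 cells, Trbv1, Trbv2, Trbv13-1, Trbv19 and Trbv29 were the assigned segment of 0 effector cells and of 20 to 35 others. In UMIs, the effector cells held 2 of Trbv2, 4 of Trbv13-1, 1 of Trbv19 and 0 of Trbv1 and Trbv29. The Trbv13 family held 5.56% of effector and 22.4% of other cells (0.248, 0.0296 to 0.920). For the 13 segments with at least 20 cells, 11 were at least 1.5-fold apart, against a background of 48.6% of genes in these small sets, and 1 interval (Trbv31) excluded 1. By CPM 16 of 19 Trbv genes were apart, against 53.7%.

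**Figure D4:**
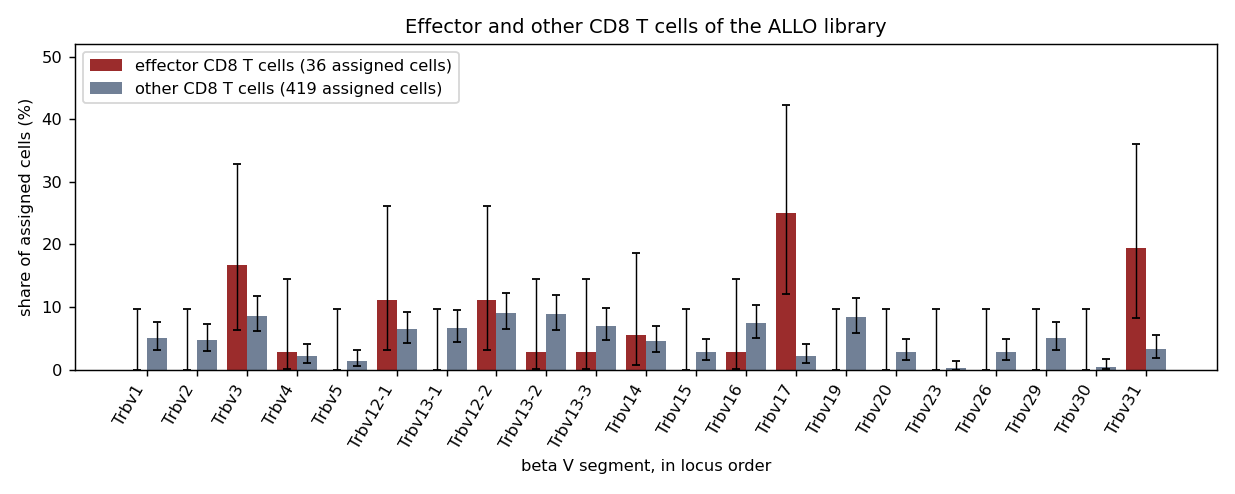
Share of assigned cells (%, vertical axis) by V segment in the effector (red bars, 36 cells) and other (grey bars, 419 cells) CD8 T cells of the ALLO library, with 95% Clopper-Pearson intervals. Trbv17, Trbv31 and Trbv3 are the 3 highest red bars, at 25.0, 19.4 and 16.7%.

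The alpha chain segments in the same cells split these leading groups. All 6 ALLO T cells with UMIs of both Trav8-1 and Trav16 were assigned to Trbv3, and 5 of them were effector CD8 T cells, so that 5 of the 6 Trbv3 effector cells shared these segments. The sixth cell was a CD4 T cell by the rule, with 1 Cd4 UMI and none of the 5 effector genes. Those 5 cells had 7 to 26 Trbv3 UMIs. In 3 of them a few UMIs of Trbv12-1 were also counted (1, 2 and 5), while no other cell of the 119 assigned to Trbv3 in ALLO, or of 158 in SYN, had a Trbv12-1 UMI. None of the 36 other CD8 T cells with Trbv3 carried both alpha segments, and in SYN a single T cell, without Trbv3, did. Mki67, a marker of dividing cells, was counted in 3 of these 5 cells, with 8, 11 and 20 UMIs, out of 48 Mki67 UMIs in all 45 ALLO effector cells.

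The Trbv31 group showed the same kind of pairing with Trav6-2. All 6 ALLO effector cells with a Trav6-2 UMI also had a Trbv31 UMI, 4 of them assigned to Trbv31 and 2 with 1 Trbv31 UMI each. Over all T cells, 7 of 12 cells with Trav6-2 had a Trbv31 UMI in ALLO and 1 of 23 in SYN, and the 3 other CD8 T cells of ALLO with Trav6-2 had none. By any UMI, Trbv31 was found in 13 of 45 ALLO effector cells (28.9%, 16.4 to 44.3%), 25 of 514 other CD8 T cells (4.86%, 3.17 to 7.10%) and 0 of 11 SYN effector cells (0 to 28.5%).

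Few of the Trbv17 effector cells had an alpha segment UMI. A Trav UMI was present in 1 of 9 (11.1%, 0.281 to 48.2%), against 6 of 9 other CD8 T cells with Trbv17 and 68.3% of all other CD8 T cells. The 4 ALLO effector cells assigned to Trbv12-1 also had none (0 of 4, 0 to 60.2%), against 77.8% of 27 other CD8 T cells with Trbv12-1. The depth of the Trbv17 effector cells was lower, with a median of 2372 UMIs per cell against 5567 in the other Trbv17 cells. At depths between 1957 and 5003 UMIs, the range of the 9 cells, 64.3% of 227 other CD8 T cells (57.7 to 70.5%) and 10 of 21 remaining effector cells had a Trav UMI. The 9 cells were all positive for Gzma, with 106 UMIs. Gzma is among the genes that define the effector set, so this is partly set by the rule and is no check. Assignment to Trbv17 also required a minimum of its UMIs. All 9 cells were above that minimum, with 5 to 14 Trbv17 UMIs each, so the segment itself was well counted. Whether they share an alpha chain cannot be read from these counts. Pairs of a Trbv and a Trav, each assigned by the same limits, were held by more than 1 cell for 5 of 9 effector cells in ALLO (55.6%, 21.2 to 86.3%), 41 of 185 other CD8 T cells (22.2%, 16.4 to 28.8%) and 57 of 206 CD4 T cells (27.7%, 21.7 to 34.3%). In SYN this held for 0 of 6 effector cells (0 to 45.9%), 68 of 204 other CD8 T cells (33.3%, 26.9 to 40.3%) and 138 of 316 CD4 T cells (43.7%, 38.1 to 49.3%). The interval of the ALLO effector cells spans the shares of these larger SYN classes. These groups were chosen with their values known.

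As a further check on what the effector set holds, the NK markers Ncr1, Klrb1c, Tyrobp and Eomes were at 146 CPM in ALLO effector cells with Ncr1 at 0, at 81.2 in other ALLO CD8 T cells, and at 672 in SYN effector cells with all 4 detected. The CD3 genes were at 2511 and 2188 CPM in ALLO and SYN effector cells, but a CD3 UMI was required of every T cell, so this is no check. Erythroid markers were at 0 in both effector sets. The regulatory T and myeloid lists were at 11.7 and 35.1 CPM in ALLO and at 345 and 293 in SYN effector cells. Effector cells of ALLO had a median of 3049 UMIs against 5035.5 in the other CD8 T cells. The part of depth or of these transcripts in the segment shares was not tested.

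A further pattern was in cells that carried transcripts of more than 1 V segment. Cells with at least 2 UMIs of each of 2 segments made up 11.8% of ALLO and 10.9% of SYN CD4 T cells and 10.7% and 10.1% of CD8 T cells. Where the other segment was counted depended on its place in the locus. In T cells assigned to a segment, the next coding V segment on the 5′ side had a UMI in 6.82% of cells in ALLO (5.44 to 8.42%) and 7.49% in SYN (6.20 to 8.95%). The next one on the 3′ side had a UMI in 0.876% (0.438 to 1.56%) and 1.06% (0.619 to 1.69%).

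Taken by single segment, Trbv13-2 and Trbv12-2 showed the gap. Trbv13-2 was counted in 30.8% of ALLO and 34.5% of SYN T cells assigned to Trbv13-3 or Trbv14, which lie just 3′ of it. The share was 19.2% and 18.2% for cells of Trbv15, Trbv16, Trbv17 and Trbv19, 6.59% and 3.63% for Trbv20 to Trbv30, and 5.19% and 7.14% for the inverted Trbv31. In cells assigned to segments 5′ of Trbv13-2 it was 4.91% and 5.24%. Over all segments 3′ of it except Trbv31, the share was 3.77 times (2.43 to 6.03) the 5′ share in ALLO and 3.35 times (2.30 to 4.98) in SYN.

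Trbv12-2 followed the same order 1 place upstream. It was counted in 18.8% and 22.3% of cells assigned to Trbv13-2, 13.7% and 8.97% for Trbv13-3 and Trbv14, 4.71% and 4.48% for Trbv15 to Trbv19, and 2.58% and 2.88% of cells with 5′ segments, with ratios of 3.62 (1.94 to 7.35) and 3.22 (1.94 to 5.61). Most of these cells had 1 UMI of the other segment (median 1 in every group). For every other coding segment with cells on both sides, the interval of the ratio included 1 in both libraries. In coding sequence Trbv13-2 is 90.6% identical to Trbv13-3 but 56.1% to Trbv14, and Trbv12-2 is 53.9% identical to Trbv13-2 and 53.5% to Trbv13-3.

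**Figure D5:**
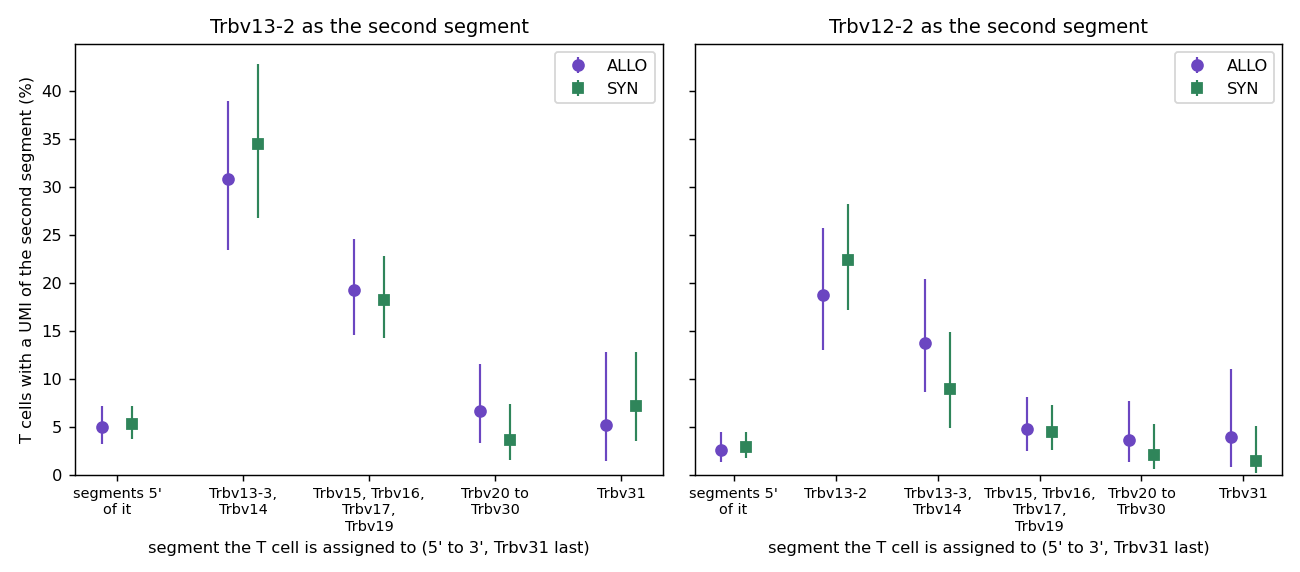
Share of T cells (%, vertical axis) with a UMI of Trbv13-2 (left) or Trbv12-2 (right) among cells assigned to another segment, by the place of that segment in the locus; purple circles are ALLO and green squares SYN, with 95% Clopper-Pearson intervals. The share is highest for segments just 3′ of the counted one, up to 34.5%, and near 5% or below for segments on its 5′ side.

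T cells with a UMI of Zbtb16, the transcription factor of innate-like T cells, used few segments. Trbv13-2 was the segment of 15 of 31 assigned Zbtb16 cells in ALLO (48.4%, 30.2 to 66.9%) and 20 of 29 in SYN (69.0%, 49.2 to 84.7%), against 11.1% and 12.3% of the other T cells, ratios of 4.35 (2.38 to 7.42) and 5.59 (3.34 to 8.85). Trbv29 followed in ALLO, with 5 of 31 cells (ratio 5.40, 1.66 to 13.7), and had 2 of 29 in SYN. Trbv13-3 had 4 of 31 cells in ALLO, and Trbv13-1 was second in SYN with 4 of 29. Both of these ratios had intervals that include 1. Trbv1 was not clearly raised, with ratios of 1.54 (0.311 to 4.66) in ALLO and 0.929 (0.111 to 3.43) in SYN. Trbv13-2, Trbv29 and Trbv1 are the known beta partners of the invariant alpha chain of natural killer T cells. That chain itself was hardly counted: no T cell had UMIs of both Trav11 and Traj18, and 4 ALLO and 1 SYN Zbtb16 cells had a Traj18 UMI.

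Constant gene use could not be paired with J segments. Trbc1 held 28.3% of Trbc1 and Trbc2 UMIs in ALLO CD4 T cells (25.9 to 30.8%) and 22.9% in SYN (21 to 25%). In CD8 T cells it held 33.0% (30.3 to 35.8%) and 29.0% (26.5 to 31.6%), and in Foxp3 T cells 36.0% (30.8 to 41.5%) and 26.3% (21.1 to 32.1%). The share was higher in ALLO in all 3 classes. Trbc1 and Trbc2 are near-identical copies, so the split of their reads by the authors' counting is uncertain, and UMIs of 1 cell are not independent.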

How the data were processed

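Per the submitters' processing notes, the authors used FastQC and Cell Ranger 6.0.2 with the mouse build mm10. The annotation release is not given in the sources used here, and gene coordinates and coding sequences come from GENCODE M21 on the same build. The deposited values are raw UMI counts per gene and barcode, as deposited by the authors after barcode calling (lowest barcode total 500 UMIs).

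From these counts, barcodes with at least 1000 UMIs were kept, with no doublet caller and no limit on mitochondrial UMIs, and classes were set by the marker UMIs given above. B cells had 2 or more Cd79a UMIs and none of Cd3d, Cd3e or Cd3g. NK cells had an Ncr1 UMI and none of Cd79a or these CD3 genes. Gamma delta T cells were T cells with 2 or more Trdc UMIs and none of Trac. Shares have Clopper-Pearson intervals and ratios exact conditional intervals at 95%. A segment was compared between classes with at least 20 assigned cells over both, and called apart from 1.5-fold; for the background, a gene needed 20 cells with 2 or more UMIs, or 20 UMIs for CPM. Assignment and ratio steps were tested on simulated data with independent UMIs and an even, low background over segments. Second segments of neighbouring genes and the dependence of UMIs within a cell were not simulated, so the test does not cover them. Python 3.11.15, numpy 2.4.6, scipy 1.17.1 and pandas 2.3.3 were used. The members, classes and lists were chosen with earlier results of these data known. Segments described are those 1.5-fold apart and those with the largest shares. Alternatives covered the UMI limits, the minimum of cells, the barcode minimum, thinning and UMI shares.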

Additional observations from a re-analysis of the deposited data

How the results depend on the processing

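Of 289 values recomputed under an alternative, 242 stayed within the limits set for a stable value, 47 moved and 0 reversed. Only a ratio whose main interval excluded 1 could be labelled reversed, so counts, percentages and effective numbers could not be. All 135 recomputed CD8 over CD4 values of single segments kept their direction. They cover only Trbv12-1, Trbv12-2, Trbv17, Trbv29, Trbv14, Trbv20, Trbv31, Trbv26 and Trbv15. These were chosen with their values known, and the alternatives use overlapping sets of cells. The count of segments 1.5-fold apart between ALLO and SYN CD4 T cells was 2. It was 0 with barcodes of at least 2000 or at least 500 UMIs, 6 with no minimum of assigned cells and 1 without barcodes found in both libraries. For CD8 T cells it was 1, and became 2 without the effector cells, with at least 3 UMIs of the leading segment or with barcodes of at least 500 UMIs, 3 with no minimum or by the share of Trbv UMIs, and 4 with at least 1 UMI. Segments apart in both libraries between Foxp3 and Foxp3-negative cells numbered 0, and 1 with Foxp3 at 2 or more UMIs, with Foxp3 T cells of the CD4 class only or without the shared barcodes, 2 by Trbv UMIs and 3 with no minimum.

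Requiring 2 Trbv UMIs gave detection of 85.02% and 83.4% in CD4 T cells of ALLO and SYN, 85.2% and 84.1% in CD8 T cells and 85.2% in SYN Foxp3 T cells. With barcodes of at least 500 UMIs the SYN values were 90.2% (CD4), 84.99% (CD8) and 87.4% (Foxp3). Thinned to 1000 UMIs they were 70.4% and 69.4% (CD4), 64.6% and 63.8% (CD8) and 69.2% and 70.4% (Foxp3). Cells with more than 1 segment made up 29.1% and 29.01% of CD4 and 26.7% and 27.03% of CD8 T cells at 1 UMI of each, and 1.05% and 1.03%, and 0.716% and 1.44%, after thinning.

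For the side of the locus, the SYN Trbv12-2 ratio was 13.1 with at least 2 UMIs and 8.12 after thinning, and the ALLO Trbv13-2 ratio after thinning was 2.39, with an interval of 0.980 to 6.67 that includes 1. Among Zbtb16 cells with Traj18, Trbv13-2 was 25% in ALLO and 100% in SYN of the few assigned cells. With genes of at least 1 UMI, 33.3% (CD4) and 32.98% (CD8) of genes were apart between libraries, 43.7% and 39.7% between CD8 and CD4 T cells in ALLO and SYN, and 8 Trbv genes between libraries in CD4 T cells. The cause of these changes was not tested.

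Leaving out barcodes found in both libraries or the effector cells, counting cells with the same Trbv and Trav once, leaving out Mki67 cells, Foxp3 T cells of the CD4 class only, all second-segment alternatives, the Zbtb16 rule and pairs of Trbv with Trav were chosen after seeing the data. Pairs of V and J, of J and constant gene, and cells of the same V and J counted once were not run, because Trbj had 0 UMIs. The rule of Trav11 with Traj18 found 0 T cells. No paired analysis was possible because each group has 1 library, the groups share 1 replicate number and no result comes from a test; with 1 library a group, there was no replicate to leave out. The effector set is small, with 45 and 11 cells, of which 36 and 7 were assigned a segment.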
